A study of Homo sapiens with 6 samples.

Results

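The cytosolic and mitochondrial chaperones described here are 39 genes: the heat shock factors HSF1 and HSF2, the HSP90 and HSP70 systems with their partners, small heat shock proteins, the 8 subunits of the CCT ring and 4 mitochondrial chaperones. They were given as a list of symbols and matched to the rows of the deposited table of read counts. All 39 symbols matched, out of 61533 gene rows, and all 39 passed the filter on low counts that left 14071 genes for testing. The cells were MDA-MB-231, an established line of human breast cancer of the triple-negative kind, and RNA was sequenced after depletion of ribosomal RNA. One group carried shKDM2B, a short hairpin RNA against KDM2B, a histone demethylase that binds CpG-rich DNA (3 libraries, genotype given as a KDM2B knockdown). The other carried the empty vector, with its genotype given as WT (3 libraries). The labels name no drug, heat or other stress treatment in either group, and the sources used here name no hairpin sequence and do not say whether either group was 1 clone.

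Chaperones bind unfolded proteins and help them fold, move or be degraded. HSP70 proteins, driven by J-proteins and reset by nucleotide exchange factors such as the HSP110 proteins, take up clients early, and HSP90 with its cochaperones matures kinases, steroid receptors and other signalling proteins. The CCT ring folds actin and tubulin, while the mitochondrial matrix has its own HSP60 and HSP70 machines. HSF1 is the transcription factor that drives the heat shock response by binding heat shock elements, which are arrays of inverted GAA units, and many tumour lines have been reported to depend on HSF1 and HSP90.

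Library totals ran from 10190149 to 15737951 counts. KDM2B had 153, 166 and 224 counts in the shKDM2B libraries, against 589, 714 and 902 in the empty vector libraries, and its level was 14.7 ± 0.183 CPM in shKDM2B cells and 63.5 ± 5.58 CPM in empty vector cells (SD, n = 3 each). CPM are counts scaled to a fixed library size after TMM correction. Of the markers of the line, ESR1 and PGR had at most 4 counts in any library, while ERBB2 was at 62.5 ± 3.8 CPM in shKDM2B cells and 63.7 ± 8.34 CPM in empty vector cells. Of the genes looked for as present, VIM was lower in shKDM2B cells (405.9 ± 10.3 CPM, against 1299.1 ± 52.3 CPM in empty vector cells), KRT8, CD44 and EGFR were higher with log2 fold changes of 0.49, 0.20 and 0.19, and KRT18, at 0.19, did not pass the test. Marker sums for other cell types differed between the groups: 7 fibroblast genes summed to 78.1 to 86.4 CPM in shKDM2B libraries against 10.7 to 15 CPM in empty vector libraries, 6 endothelial genes to 176 to 187 against 57.8 to 65 CPM, and 7 leukocyte genes to 7.36 to 8.99 against 19 to 28 CPM. CD3E and LYZ were at 0 in all 6 libraries, and 3 of the fibroblast genes, 2 of the endothelial genes and 1 of the leukocyte genes passed the filter on low counts. Single genes made up much of these sums. They were COL1A1 (66.4 CPM in shKDM2B cells, 5.78 CPM in empty vector cells), ESAM (155.2 and 52 CPM) and LCP1 (7.53 and 22.9 CPM). The genes below the filter had at most 4 counts in any library for fibroblasts, 8 for endothelium and 12 for leukocytes. The part of these markers in the results below was not tested. In bulk RNA, fewer cells of a kind and less RNA per cell cannot be told apart. The replicates are named as biological in the labels, with no word on separate cultures. The p-values therefore cover the spread among these 6 libraries only, and part of it may be technical.

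Promoter sequences are shown first for members whose transcripts moved by unequal amounts or in opposite directions although their promoters carry the same motif. Of the 39 members, 35 had promoter windows in RefSeq (GRCh38.p14), each running from 250 bases before to 50 bases after a transcript start. A heat shock element of 3 units was searched as GAANNTTCNNGAA, and as TTCNNGAANNTTC for the other strand, with overlapping matches allowed. It was present in 172 of 35116 windows of all genes (0.49%) and in 7 of 51 windows of members (13.7%), 1 in each of 7 of the 35 members: HSP90AA1, HSP90AB1, HSPA8, CHORDC1, HSPD1, DNAJB6 and DNAJA1. Below are the windows of HSP90AA1 (chr14:102086995-102087294, minus strand), HSP90AB1 (chr6:44247693-44247992, plus strand), HSPA8 (chr11:123062087-123062386, minus strand) and DNAJB6 (chr7:157336754-157337053, plus strand), each 5′ to 3′ on the strand of the gene, with the element in capitals.
HSP90AA1: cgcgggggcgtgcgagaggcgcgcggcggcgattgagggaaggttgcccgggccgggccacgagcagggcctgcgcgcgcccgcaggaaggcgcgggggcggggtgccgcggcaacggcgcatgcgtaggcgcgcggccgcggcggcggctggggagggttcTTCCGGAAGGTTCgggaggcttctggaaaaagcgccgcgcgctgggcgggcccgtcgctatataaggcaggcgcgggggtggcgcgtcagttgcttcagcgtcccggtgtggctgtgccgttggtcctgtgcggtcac
HSP90AB1: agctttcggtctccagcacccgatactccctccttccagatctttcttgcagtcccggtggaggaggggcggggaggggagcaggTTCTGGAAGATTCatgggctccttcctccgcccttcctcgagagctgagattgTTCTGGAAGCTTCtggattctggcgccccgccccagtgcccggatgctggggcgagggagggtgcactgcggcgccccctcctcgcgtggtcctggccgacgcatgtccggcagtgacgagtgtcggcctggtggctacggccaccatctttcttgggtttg
HSPA8: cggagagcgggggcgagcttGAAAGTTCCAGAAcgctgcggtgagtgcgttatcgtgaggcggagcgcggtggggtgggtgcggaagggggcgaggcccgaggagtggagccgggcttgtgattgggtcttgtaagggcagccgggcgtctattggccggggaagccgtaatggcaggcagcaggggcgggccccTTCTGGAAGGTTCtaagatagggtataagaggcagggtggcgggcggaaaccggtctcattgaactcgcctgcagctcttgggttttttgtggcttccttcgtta
DNAJB6: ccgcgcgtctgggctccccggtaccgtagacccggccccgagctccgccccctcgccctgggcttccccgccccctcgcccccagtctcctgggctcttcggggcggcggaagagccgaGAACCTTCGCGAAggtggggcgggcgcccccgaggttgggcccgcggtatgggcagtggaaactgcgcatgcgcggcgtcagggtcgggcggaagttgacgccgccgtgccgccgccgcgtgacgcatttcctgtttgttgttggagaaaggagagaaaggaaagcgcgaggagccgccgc

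The element began 88 bases before the start in HSP90AA1 and 131 bases before it in DNAJB6. HSP90AB1 held 1 copy at 165 and another at 112 bases before the start, and HSPA8 held 1 copy at 230 and another at 55 bases before it. CHORDC1 held a run of overlapping elements from 60 bases before its start, of which the first read GAAAATTCGCGAA. The DNAJA1 element, GAACTTTCCAGAA, began 3 bases after the start. Of these 7 members, HSP90AA1, HSP90AB1, HSPA8, CHORDC1 and HSPD1 were lower in shKDM2B cells, DNAJB6 was higher and DNAJA1 did not pass the test. For comparison, 51.3% of all members were called lower and 20.5% higher. Of all genes tested, 30.4% were called lower and 30.5% higher. A link between the element and the direction was not tested. A match describes the letters in the window and not a site in use. The window with the most CpG had a median of 28 CpG over the 35 members (15 to 49), and the same median of 28 over the 10414 tested genes with a window.

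Across the 39 genes, 8 were higher and 20 lower in shKDM2B cells than in empty vector cells at an adjusted p under 0.05 by edgeR's quasi-likelihood test with Benjamini-Hochberg adjustment over all 14071 genes tested, and 11 did not pass. These are 20.5% higher and 51.3% lower, read against 30.5% of all genes tested called higher and 30.4% called lower (60.9% in either direction). The median log2 fold change of the members was -0.18, beside -0.01 over all genes tested. The 3 shKDM2B and 3 empty vector values did not overlap for 33 members (84.6%), against 65.5% of all genes tested. The members that changed at least 2-fold were HSP90AA1, HSF1 and TRAP1, all lower in shKDM2B cells.

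**Figure D1:**
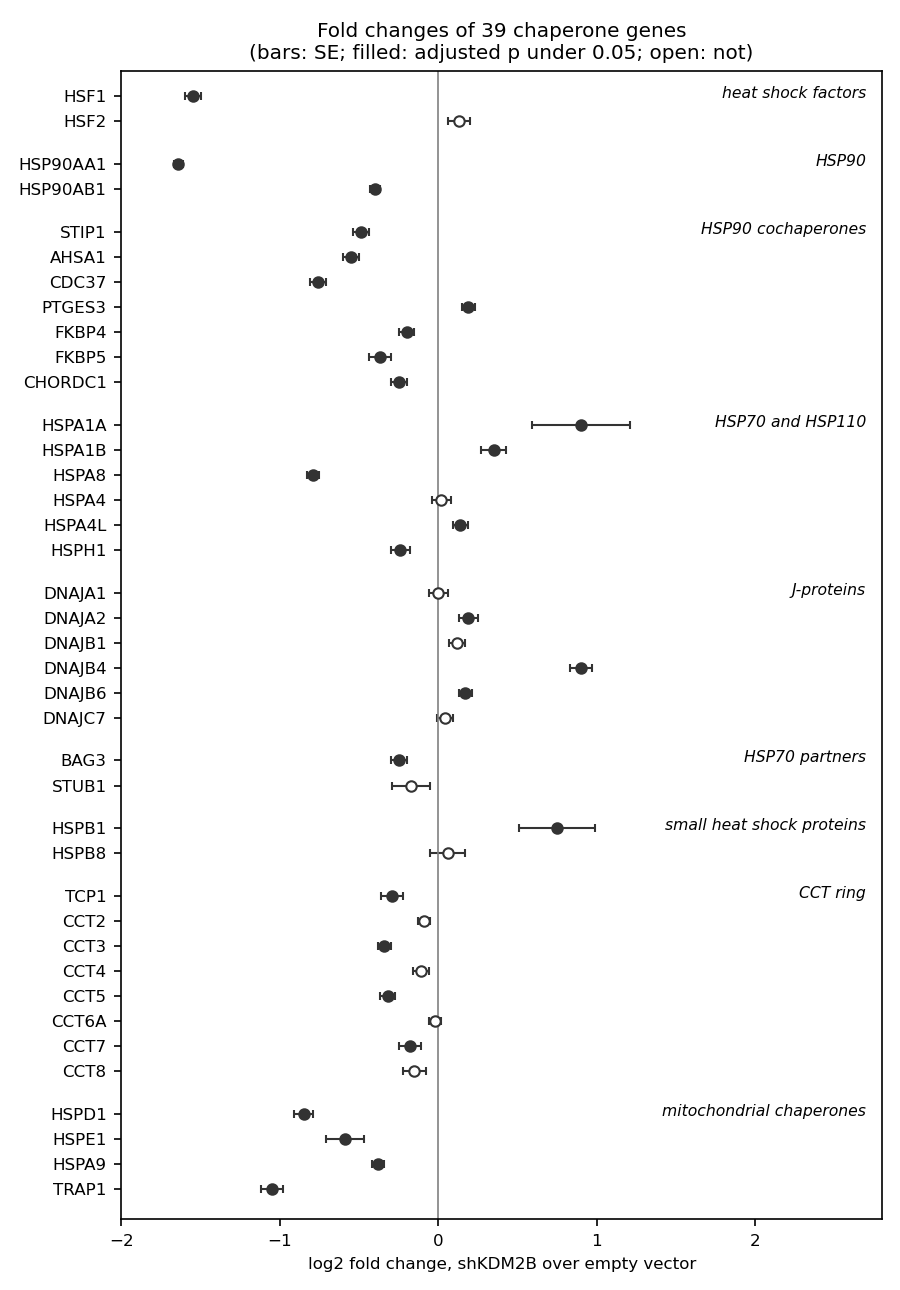
Log2 fold change of each of the 39 chaperone genes, shKDM2B over empty vector, in the order of their roles. Points are edgeR estimates with bars of 1 SE, filled where the adjusted p was under 0.05; the mitochondrial chaperones and all but PTGES3 of the HSP90 group lie left of 0, and the J-proteins lie at or right of 0.

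The chaperone transcripts took up a smaller share of all counts in shKDM2B cells. The 39 genes together held 1.31, 1.3 and 1.32% of the counts in the shKDM2B libraries and 1.93, 1.99 and 1.89% in the empty vector libraries, a 1.48-fold difference. HSP90AA1, HSP90AB1 and HSPA8 supplied most of the gap. Without these 3 genes the share was 0.813% ± 0.0018 in shKDM2B cells and 0.965% ± 0.0409 in empty vector cells (SD, n = 3 each), a 1.19-fold difference. MALAT1, an abundant nuclear noncoding RNA, held 0.287% ± 0.0354 of the counts in shKDM2B libraries and 0.101% ± 0.00576 in empty vector libraries, without overlap, and its part in the chaperones' share was not tested.

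Of the heat shock factors, HSF1 was lower and HSF2 did not pass the test. HSF1, the main activator of the heat shock response, had 64.4, 68.6 and 69.7 CPM in the shKDM2B libraries, against 195.8, 196.2 and 203.9 CPM in the empty vector libraries. Every shKDM2B library was far below every empty vector library, and the level was 2.94-fold lower (log2 fold change -1.55, SE 0.05, edgeR adjusted p = 2.35e-11). Of all genes tested, 1.38% had a lower log2 fold change. HSF2, a related factor that can form mixed complexes with HSF1, had 38.6, 40.7 and 38.4 CPM in shKDM2B libraries and 35.1, 35.8 and 36.6 CPM in empty vector libraries. Its groups did not overlap, but the difference did not pass the test (log2 fold change 0.13, edgeR adjusted p = 0.113).

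Of the 9 genes of HSP90 and its cochaperones, 8 were lower in shKDM2B cells and 1 was higher, with a median log2 fold change of -0.40. These are 88.9% lower and 11.1% higher, against 30.4% and 30.5% of all genes tested. HSP90AA1, the stress-inducible cytosolic HSP90 alpha (chr14:102080738-102139699, minus strand, GRCh38), had 1263.9, 1237.0 and 1288.5 CPM in shKDM2B libraries, against 3916.9, 4099.7 and 3824.4 CPM in empty vector libraries. This was the largest fold change of the 39 genes, 3.12-fold lower in shKDM2B cells (log2 fold change -1.64, SE 0.03, edgeR adjusted p = 3.1e-13). HSP90AB1, the constitutive HSP90 beta (chr6:44246166-44253888, plus strand), had 2150.2, 2079.5 and 2133.2 CPM in shKDM2B libraries, against 2854.4, 2866.7 and 2682.6 CPM in empty vector libraries. It was lower as well, by 1.32-fold (log2 fold change -0.40, SE 0.03, edgeR adjusted p = 1.6e-07).

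The 2 isoforms were also compared within each library, which does not depend on the scaling of library sizes. The ratio of HSP90AA1 to HSP90AB1 counts was 0.588, 0.595 and 0.604 in shKDM2B cells and 1.37, 1.43 and 1.43 in empty vector cells. HSP90AA1 gave more counts than HSP90AB1 in each empty vector library and fewer in each shKDM2B library. The log2 difference was -1.24, with an exact two-sided permutation p of 0.1, which is the smallest that 3 against 3 libraries can give (0.167 after Benjamini-Hochberg adjustment over the 5 ratios computed). Per kb of merged exons, HSP90AB1 was the more abundant in both groups, an order that turned in empty vector cells with the length of the longest coding transcript. The level of HSP90AA1 was 240.7 ± 4.91 and that of HSP90AB1 711.7 ± 12.4 CPM per kb of merged exons in shKDM2B cells, and 752.1 ± 26.7 and 940.0 ± 34.5 CPM per kb in empty vector cells (SD, n = 3 each). The 5 pseudogene rows of HSP90AA1 together had 105, 96 and 140 counts in shKDM2B libraries and 290, 428 and 393 in empty vector libraries, and made up 0.787% of the pooled counts of the gene and its pseudogenes.

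Among the cochaperones, the largest difference was in CDC37, which brings protein kinases to HSP90. It had 64.1, 59 and 61.1 CPM in shKDM2B libraries, against 104.4, 105.1 and 101.9 CPM in empty vector libraries (log2 fold change -0.76, SE 0.05, edgeR adjusted p = 2.44e-08). AHSA1, which stimulates the HSP90 ATPase, had 70.3, 66.3 and 65.3 CPM in shKDM2B libraries, against 94.9, 102.0 and 97.8 CPM in empty vector libraries (log2 fold change -0.55, edgeR adjusted p = 9.28e-07). STIP1, the adaptor that hands clients from HSP70 to HSP90, had 252.8, 258.0 and 268.7 CPM in shKDM2B libraries and 377.4, 355.6 and 362.6 CPM in empty vector libraries (log2 fold change -0.49, edgeR adjusted p = 6.64e-07). None of these 3 genes had overlapping groups.

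The remaining cochaperones moved less. FKBP5 and FKBP4 are peptidyl-prolyl isomerases of steroid receptor complexes, and FKBP5 is a glucocorticoid-induced gene that restrains the receptor. FKBP5 had 51.3, 53.9 and 48.8 CPM in shKDM2B libraries, against 68.5, 59.3 and 70.1 CPM in empty vector libraries (log2 fold change -0.37, edgeR adjusted p = 0.000478). FKBP4 averaged 125.3 ± 1.49 CPM in shKDM2B cells and 143.6 ± 3.41 CPM in empty vector cells (log2 fold change -0.20, edgeR adjusted p = 0.00296). The FKBP5 to FKBP4 ratio of counts was 0.412, 0.433 and 0.385 in shKDM2B libraries and 0.488, 0.403 and 0.488 in empty vector libraries, with overlapping groups (exact permutation p = 0.3, adjusted p = 0.3). CHORDC1, an HSP90-binding protein also called morgana, averaged 87.1 ± 1.45 CPM in shKDM2B cells and 103.7 ± 1.27 CPM in empty vector cells (log2 fold change -0.25, edgeR adjusted p = 0.000513). PTGES3, the p23 protein that stabilises the closed form of HSP90, went the other way: it had 580.3, 583.7 and 601.2 CPM in shKDM2B libraries and 527.1, 487.4 and 528.6 CPM in empty vector libraries (log2 fold change 0.19, SE 0.04, edgeR adjusted p = 0.00172).

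**Figure D2:**
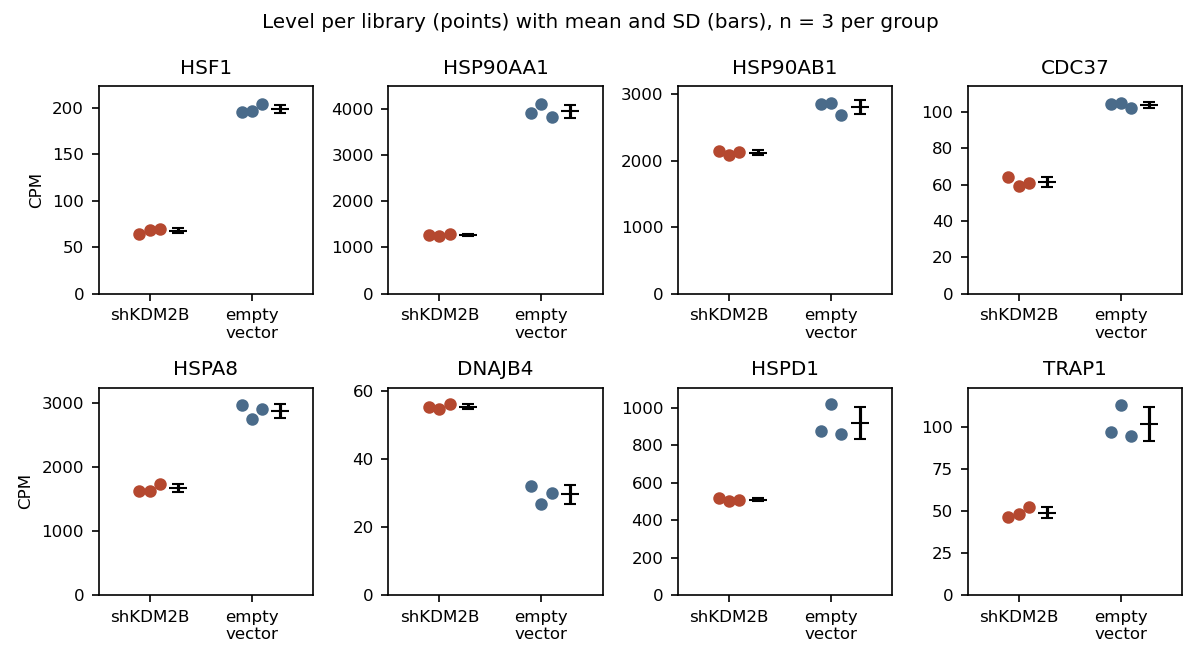
Levels in CPM of 8 chaperone genes in each library, shKDM2B left and empty vector right, with the mean and SD of 3 libraries beside the points. The groups do not overlap in any panel; HSF1 and HSP90AA1 show the widest gaps, and DNAJB4 is the panel in which shKDM2B lies higher.

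The 12 genes of HSP70, HSP110 and the J-proteins did not move one way: 6 were higher in shKDM2B cells, 2 were lower and 4 did not pass the test, with a median log2 fold change of 0.13. These are 50.0% higher and 16.7% lower, against 30.5% and 30.4% of all genes tested. HSPA8, the constitutive HSC70 and the most abundant HSP70 here, was the main exception. It had 1629.2, 1627.3 and 1737.7 CPM in shKDM2B libraries, against 2967.5, 2756.9 and 2912.7 CPM in empty vector libraries. The groups were far apart and the level was 1.73-fold lower in shKDM2B cells (log2 fold change -0.79, SE 0.04, edgeR adjusted p = 5.44e-10). HSPA8 alone held 0.164% ± 0.00483 of the library in shKDM2B cells and 0.29% ± 0.0122 in empty vector cells. All 12 genes together held 0.353% ± 0.00584 in shKDM2B cells and 0.476% ± 0.00683 in empty vector cells (SD, n = 3 each), although more of them rose than fell.

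The inducible HSP70 genes HSPA1A and HSPA1B, which lie next to each other on chromosome 6 (chr6:31815464-31817946 and chr6:31827735-31830255), were low in both groups. HSPA1B had 33.5, 36.8 and 36.5 CPM in shKDM2B libraries, against 30.9, 25.3 and 27.7 CPM in empty vector libraries (log2 fold change 0.35, SE 0.08, edgeR adjusted p = 0.00248). HSPA1A had 19, 40 and 31 counts in shKDM2B libraries and 10, 15 and 20 in empty vector libraries, with a log2 fold change of 0.90 and an SE of 0.31 (edgeR adjusted p = 0.0201). The HSPA1A call was lost without shKDM2B replicate 2 (log2 fold change 0.58, adjusted p = 0.12) and without empty vector replicate 1 (0.75, adjusted p = 0.0754). The near-identical pair shares 72.6% of the 50-base words of HSPA1A, and the sources used here do not say how reads that fit both were counted, so the split between them is uncertain. The ratio of their summed counts to those of HSPA8 was 0.0217, 0.0248 and 0.0222 in shKDM2B libraries and 0.0107, 0.00971 and 0.00999 in empty vector libraries (log2 difference 1.17, exact permutation p = 0.1, adjusted p = 0.167). HSPA8 gave far more counts than both inducible genes together in every library.

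The HSP110 proteins exchange the nucleotide of HSP70. HSPH1, the heat-inducible member, had 275.5, 279.0 and 283.5 CPM in shKDM2B libraries, against 315.7, 368.4 and 307.1 CPM in empty vector libraries (log2 fold change -0.24, SE 0.06, edgeR adjusted p = 0.00402). HSPA4 had 445.0, 411.8 and 442.7 CPM in shKDM2B libraries and 398.8, 467.6 and 415.8 CPM in empty vector libraries, with overlapping groups (log2 fold change 0.02, edgeR adjusted p = 0.791). HSPA4L averaged 145.7 ± 1.71 CPM in shKDM2B cells and 132.1 ± 3.47 CPM in empty vector cells (log2 fold change 0.14, edgeR adjusted p = 0.0218). The HSPA4L call was lost without shKDM2B replicate 1 (adjusted p = 0.0612), without shKDM2B replicate 3 (0.0681), without empty vector replicate 1 (0.0591), with scaling by library totals (0.0679) and with no filter on low counts (0.203). The ratio of HSPH1 to HSPA4 counts was 0.619, 0.678 and 0.64 in shKDM2B libraries and 0.792, 0.788 and 0.738 in empty vector libraries, without overlap (log2 difference -0.26, exact permutation p = 0.1, adjusted p = 0.167).

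J-proteins deliver clients to HSP70 and start its ATPase. None of the 6 measured here was lower in shKDM2B cells, and 3 were higher (50.0%, against 30.5% of all genes tested). The median log2 fold change of the 6 was 0.15. DNAJB4 stood out with 55.3, 54.6 and 56.1 CPM in shKDM2B libraries, against 32.1, 26.7 and 30.1 CPM in empty vector libraries. It was 1.87-fold higher in shKDM2B cells (log2 fold change 0.90, SE 0.07, edgeR adjusted p = 1.28e-07), and none of its 50-base words is shared with another gene. DNAJB6, which holds back the aggregation of polyglutamine proteins, had 400.9, 403.2 and 422.5 CPM in shKDM2B libraries, against 369.9, 357.4 and 361.3 CPM in empty vector libraries (log2 fold change 0.17, edgeR adjusted p = 0.00372, and 0.0525 with no filter on low counts, where the call was lost). DNAJA2 had 84.1, 78.8 and 75.3 CPM in shKDM2B libraries, against 72.4, 69.2 and 66.8 CPM in empty vector libraries (log2 fold change 0.19, edgeR adjusted p = 0.0121). The DNAJA2 call was lost without shKDM2B replicate 1 (adjusted p = 0.0901) and without empty vector replicate 3 (adjusted p = 0.062). DNAJB1, the heat-inducible HSP40, averaged 148.6 ± 5.9 CPM in shKDM2B cells and 136.4 ± 5.03 CPM in empty vector cells and did not pass (edgeR adjusted p = 0.0551). DNAJA1, at 245.8 ± 0.627 CPM in shKDM2B cells and 245.7 ± 23 CPM in empty vector cells, and DNAJC7, which binds both HSP70 and HSP90, at 82.6 ± 1.33 CPM in shKDM2B cells and 80.3 ± 3.64 CPM in empty vector cells, also did not pass (edgeR adjusted p = 0.989 and 0.522). The genes CNP and NKIRAS2 lie over parts of DNAJC7 on the other strand. Of the 50-base words of DNAJC7, 27.8% occur in other transcripts, so its counts are uncertain.

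Partners that decide the fate of HSP70 clients and the small heat shock proteins gave 1 lower and 1 higher gene. BAG3, which links HSP70 to small heat shock proteins and to autophagy, had 70.7, 70.3 and 71.2 CPM in shKDM2B libraries, against 86.7, 82.2 and 83.5 CPM in empty vector libraries (log2 fold change -0.25, SE 0.05, edgeR adjusted p = 0.000765). STUB1, the CHIP ubiquitin ligase, averaged 20.8 ± 1.3 CPM in shKDM2B cells and 23.6 ± 4.25 CPM in empty vector cells and did not pass (edgeR adjusted p = 0.227). The gene JMJD8, on the other strand, shares 30.4% of the 50-base words of STUB1, so the counts of STUB1 are uncertain. HSPB1, known as HSP27, had 73, 63.9 and 74.6 CPM in shKDM2B libraries, against 30, 57.7 and 38.8 CPM in empty vector libraries. The empty vector libraries spread widely for HSPB1, and although the groups did not overlap, the call was narrow (log2 fold change 0.75, SE 0.24, edgeR adjusted p = 0.0423). It was lost without shKDM2B replicate 1 (adjusted p = 0.0823), without shKDM2B replicate 3 (0.0765), without empty vector replicate 3 (0.154) and with no filter on low counts (0.179). HSPB8, the partner of BAG3, averaged 15.4 ± 0.4 CPM in shKDM2B cells and 14.8 ± 1.92 CPM in empty vector cells (edgeR adjusted p = 0.659).

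The genes classically induced together by heat, namely HSPA1A, HSPA1B, DNAJB1, DNAJA1, HSPH1, HSPB1, BAG3, HSP90AA1, HSPD1 and HSPE1, did not share a direction. Of these 10 genes, 3 were higher, 5 lower and 2 did not pass the test, with a median log2 fold change of -0.12. These are 30.0% higher and 50.0% lower, against 30.5% and 30.4% of all genes tested. The higher genes were HSPA1A, HSPA1B and HSPB1. Over the 16 alternative settings, HSPA1A lost its call in 2, HSPB1 in 6 and HSPA1B in 1. The split of reads between HSPA1A and HSPA1B is uncertain, so they are not independent. Of the lower genes, HSPH1 and BAG3 each lost their call in 1 setting, and HSP90AA1, HSPD1 and HSPE1 in none. HSPA6, a strictly heat-inducible gene outside this list, was lower as well (log2 fold change -1.70), with low counts.

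**Figure D3:**
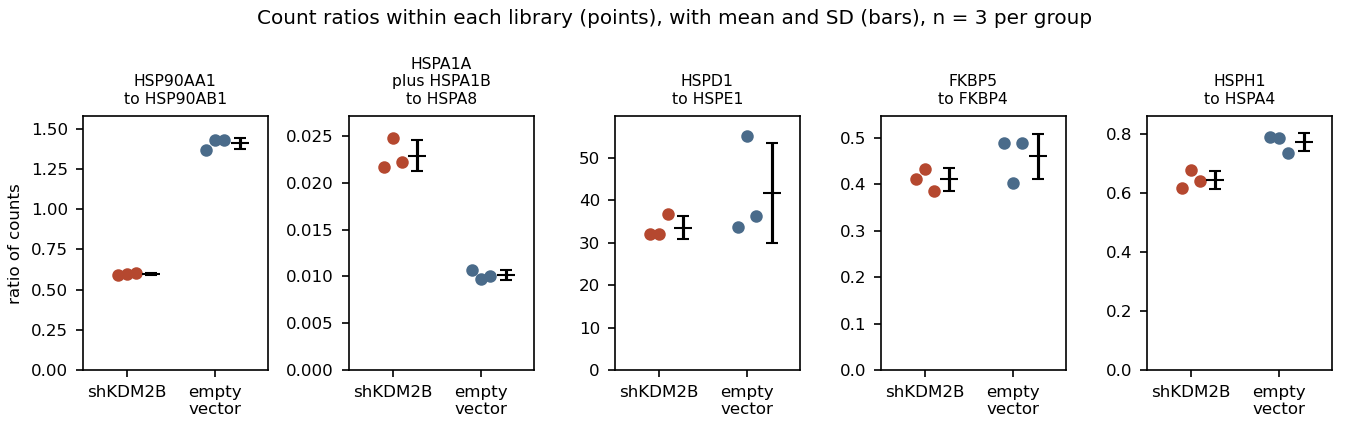
Ratios of counts within each library for 5 pairs of chaperone genes, shKDM2B left and empty vector right; points are libraries, with the mean and SD of 3. The HSP90AA1 to HSP90AB1, HSP70 and HSPH1 to HSPA4 ratios separate the groups, while the HSPD1 to HSPE1 and FKBP5 to FKBP4 ratios overlap.

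The 8 subunits of the CCT ring differed little between the groups: 4 fell in shKDM2B cells (6 with upper-quartile scaling and 7 with library totals), none rose, and the log2 fold changes ran from -0.34 to -0.02 with a median of -0.16. The 4 that fell are 50.0% of the ring, against 30.4% of all genes tested called lower. The largest differences were in CCT3 and CCT5. CCT3 had 563.9, 560.2 and 572.1 CPM in shKDM2B libraries, against 696.8, 760.4 and 697.1 CPM in empty vector libraries (log2 fold change -0.34, SE 0.04, edgeR adjusted p = 1.09e-05). CCT5 had 257.7, 243.4 and 257.5 CPM in shKDM2B libraries, against 320.8, 327.3 and 299.0 CPM in empty vector libraries (log2 fold change -0.32, SE 0.05, edgeR adjusted p = 8.57e-05). An antisense gene covers much of CCT5, so that 49.8% of its 50-base words also occur in other transcripts. That antisense gene had at most 7 counts in any library. Reads that fit both genes can have been lost from both, so these counts leave the level of CCT5 uncertain.

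For the other 2 subunits past the threshold, the size of the difference turned on a single library. TCP1 had 371.5, 373.8 and 383.6 CPM in shKDM2B libraries, against 423.4, 528.2 and 425.9 CPM in empty vector libraries (log2 fold change -0.29, edgeR adjusted p = 0.00464). The gene ACAT2 lies over part of TCP1 on the other strand, and 22.1% of the 50-base words of TCP1 occur in other transcripts. ACAT2 had 379, 379 and 578 counts in shKDM2B libraries and 736, 887 and 949 in empty vector libraries. CCT7 had 452.3, 427.8 and 454.1 CPM in shKDM2B libraries, against 478.0, 571.3 and 463.3 CPM in empty vector libraries (log2 fold change -0.18, edgeR adjusted p = 0.0359). Empty vector replicate 2 was the highest library for TCP1 and CCT7. It was also the highest empty vector library for every other subunit, CCT3 and CCT5 included. Without it the log2 fold changes were -0.18 for TCP1 (adjusted p = 7.45e-06) and -0.09 for CCT7 (adjusted p = 0.0146), and the CCT7 call was lost without any 1 of the shKDM2B libraries (adjusted p = 0.0673, 0.137 and 0.0648). CCT2, CCT4 and CCT8 had log2 fold changes of -0.09, -0.11 and -0.15 (edgeR adjusted p = 0.0849, 0.0639 and 0.0648), with no overlap between the groups for any of the 3. CCT6A, at 774.9 ± 18.4 CPM in shKDM2B cells and 786.8 ± 36.3 CPM in empty vector cells, was the only subunit whose groups overlapped (log2 fold change -0.02, edgeR adjusted p = 0.676).

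The subunits occur once in each of the rings that make up CCT, but their transcript levels differed. Per kb of merged exons in shKDM2B cells, CCT6A and CCT4 were highest, at levels of 198.6 ± 4.73 and 183.5 ± 6.17 CPM per kb, followed by CCT3, CCT7 and CCT8, then by CCT2 and TCP1, whose levels of 76.6 ± 1.46 and 76.3 ± 1.31 CPM per kb did not differ beyond their spread. CCT5 was lowest, at a level of 43.3 ± 1.4 CPM per kb. In empty vector cells CCT6A and CCT4, at levels of 201.7 ± 9.3 and 198.3 ± 11.8 CPM per kb, did not differ beyond their spread, and CCT5 was again lowest at 54.1 ± 2.54 CPM per kb. The highest level was 4.59 times the lowest in shKDM2B cells and 3.73 times in empty vector cells. Both ratios rest on CCT5, whose level can be too low if reads shared with its antisense gene were lost. With the length of the longest coding transcript the ratio was 4.14 in shKDM2B cells and 3.89 in empty vector cells, where CCT3 was then the highest; CCT4 then ranked below CCT3 and CCT7 in both groups.

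**Figure D4:**
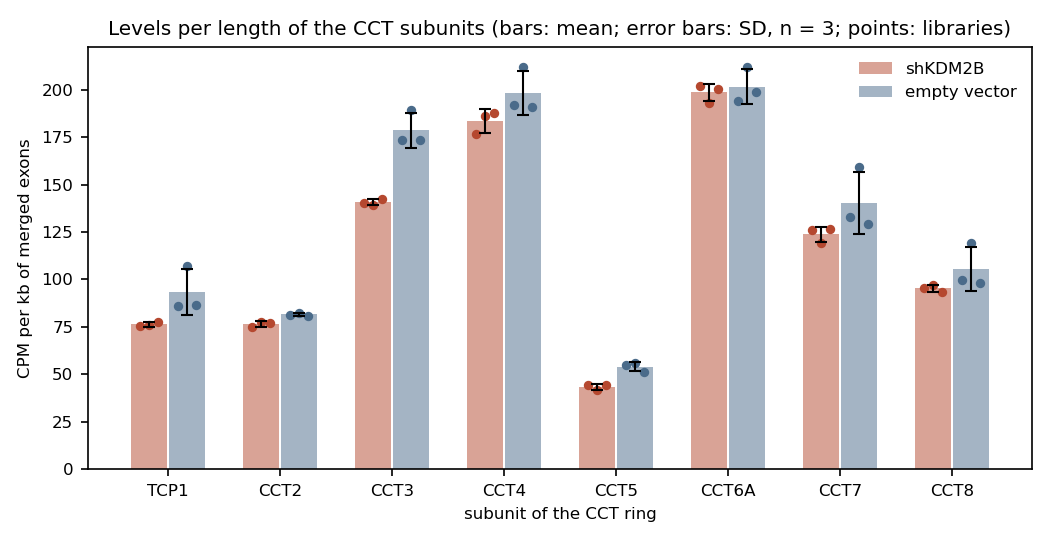
Levels of the 8 CCT subunits in CPM per kb of merged exons, shKDM2B left and empty vector right in each pair. Bars are means from 0, error bars are SDs of 3 libraries and points are libraries. Empty vector replicate 2 gives the highest empty vector point for every subunit, by the widest proportion for TCP1, CCT7 and CCT8. CCT5 is lowest in both groups.

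All 4 mitochondrial chaperones were lower in shKDM2B cells, with a median log2 fold change of -0.72 and no overlap between the groups. Of all genes tested, 30.4% were called lower and 65.5% had groups without overlap. TRAP1, the HSP90 of mitochondria (chr16:3651639-3717597, minus strand), had 46.1, 48 and 52.6 CPM in shKDM2B libraries, against 97, 113.0 and 94.8 CPM in empty vector libraries. It was 2.07-fold lower (log2 fold change -1.05, SE 0.07, edgeR adjusted p = 2.67e-08). The gene DNASE1 lies over part of TRAP1 on the other strand and had 31 to 50 counts in shKDM2B libraries and 56 to 102 in empty vector libraries. It shares 24.4% of the 50-base words of TRAP1, so the counts of TRAP1 are uncertain. HSPA9, the mitochondrial HSP70 that drives protein import and is known as mortalin, had 652.7, 641.5 and 647.7 CPM in shKDM2B libraries, against 845.1, 868.7 and 807.6 CPM in empty vector libraries (log2 fold change -0.38, SE 0.04, edgeR adjusted p = 1.8e-06).

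HSPD1 and HSPE1 code for HSP60 and its lid HSP10 and are read in opposite directions from neighbouring starts on chromosome 2 (chr2:197486581-197516737, minus strand, and chr2:197499994-197503457, plus strand). HSPD1 had 517.3, 500.9 and 509.1 CPM in shKDM2B libraries, against 877.6, 1019.5 and 859.0 CPM in empty vector libraries (log2 fold change -0.85, SE 0.06, edgeR adjusted p = 1.54e-08). HSPE1 had 16.1, 15.7 and 13.9 CPM in shKDM2B libraries, against 26, 18.5 and 23.7 CPM in empty vector libraries (log2 fold change -0.59, SE 0.12, edgeR adjusted p = 0.000768). Both genes were lower, and neither had overlapping groups. The HSPD1 to HSPE1 ratio of counts was 32.1, 32 and 36.7 in shKDM2B libraries and 33.8, 55.2 and 36.3 in empty vector libraries, with overlapping groups (log2 difference -0.28, exact permutation p = 0.3, adjusted p = 0.3). The genes share exon sequence on opposite strands, and 52.9% of the 50-base words of HSPE1 also occur in other transcripts, so the counts of HSPE1 in particular are uncertain.

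A RefSeq promoter window of HSPD1 (chr2:197500225-197500524, minus strand) shares 204 bases with that of HSPE1 (chr2:197500129-197500428, plus strand), which is why it is shown. Its only E-box, CACGTG, is in capitals. The E-box is its own complement, occurs in 7.26% of all 35116 windows and in 6 of 51 windows of members (11.8%), and was found in 5 of the 35 members, HSPD1, HSPE1, HSPA9, FKBP5 and HSF2. HSPD1 and HSPE1 share 1 site, read from the 2 strands. In HSF2, 1 site falls in both of its overlapping windows. The member windows with an E-box therefore hold some sites more than once.
HSPD1: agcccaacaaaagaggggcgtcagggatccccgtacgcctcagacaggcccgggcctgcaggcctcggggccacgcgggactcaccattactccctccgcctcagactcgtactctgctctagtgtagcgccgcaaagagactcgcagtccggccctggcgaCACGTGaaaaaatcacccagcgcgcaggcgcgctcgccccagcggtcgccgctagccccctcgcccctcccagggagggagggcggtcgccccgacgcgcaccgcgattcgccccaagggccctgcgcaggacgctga

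The heat shock elements of HSPD1 lie in another RefSeq window of the gene (chr2:197499791-197500090) and overlap as TTCTGGAAAGTTC and GAAAGTTCTGGAA, 245 and 240 bases before that window's transcript start. Of the 5 members with an E-box, HSPD1 and HSPE1, with 1 shared site, and HSPA9 and FKBP5 were lower in shKDM2B cells. HSF2 did not pass the test. Of all members 51.3% were called lower, and of all genes tested 30.4%. A link between the E-box and the direction was not tested. Transcripts encoded by the mitochondrial genome held 0.326% ± 0.141 of the counts in shKDM2B libraries and 0.111% ± 0.0375 in empty vector libraries (SD, n = 3 each), a direction opposite to that of the 4 nuclear-encoded chaperones. The shares spread widely, at 0.476, 0.196 and 0.305% in shKDM2B libraries and 0.151, 0.0767 and 0.104% in empty vector libraries. This difference and its source were not tested.

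Levels across the group spanned a wide range in both conditions. In shKDM2B cells the highest levels per kb of merged exons were those of HSP90AB1 (711.7 ± 12.4 CPM per kb), HSPA8 (343.3 ± 13) and HSP90AA1 (240.7 ± 4.91), and the lowest was that of HSPA1A (0.989 ± 0.367). In empty vector cells the order was HSP90AB1 (940.0 ± 34.5 CPM per kb), HSP90AA1 (752.1 ± 26.7), HSPA8 (593.7 ± 22.5) and HSPD1 (216.4 ± 20.7), with HSPA1A lowest (0.517 ± 0.108). The order of HSP90AB1, HSP90AA1 and HSPA8 in empty vector cells depends on the length used. Per kb of the longest coding transcript, an alternative chosen after seeing the data, shKDM2B cells kept the order HSP90AB1 (793.2 ± 13.8 CPM per kb), HSPA8 (675.9 ± 25.7) and HSP90AA1 (359.9 ± 7.34). Empty vector cells then had HSPA8 at 1168.9 ± 44.4, HSP90AA1 at 1124.5 ± 39.9 and HSP90AB1 at 1047.6 ± 38.5 CPM per kb, and HSPA8 and HSP90AA1 did not differ beyond their spread.

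Other genes of the same pathways are described from lists drawn up for these families, 96 genes of which 81 were measured. Of these, 14 were higher and 38 were lower, 29 did not pass, and the median log2 fold change was -0.21. That is 17.3% higher and 46.9% lower, against 30.5% and 30.4% of all genes tested, whose median was -0.01. The counts of each list below are read against the same shares. Of 15 further HSP90 cochaperones, 2 were higher and 9 lower, led by PPID, the cyclophilin CYP40 of steroid receptor complexes, at 14.9 ± 0.879 CPM in shKDM2B cells and 29.1 ± 3.3 CPM in empty vector cells (log2 fold change -0.95, edgeR adjusted p = 1.75e-06), and PIH1D1, a subunit of the R2TP cochaperone, at 40.2 ± 2.57 CPM in shKDM2B cells and 61 ± 6.04 CPM in empty vector cells (log2 fold change -0.59, edgeR adjusted p = 1.57e-05). Of 11 prefoldin subunits and CCT partners, which pass clients to the ring, none was higher and 6 were lower. The prefoldin subunit PFDN2 was at 4.25 ± 1.66 CPM in shKDM2B cells and 9.79 ± 2.75 CPM in empty vector cells (log2 fold change -1.21, edgeR adjusted p = 0.00289), and PFDN4 at 19.2 ± 1.9 CPM in shKDM2B cells and 30.6 ± 5.09 CPM in empty vector cells (log2 fold change -0.67, edgeR adjusted p = 0.00026). Of 5 tubulin folding cofactors, 1 was higher and 1 was lower. The lower one was TBCA, which takes up beta-tubulin (11.6 ± 1.65 CPM in shKDM2B cells, 21.6 ± 1.82 CPM in empty vector cells, log2 fold change -0.91).

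Of 14 further mitochondrial chaperones, import motor subunits and proteases, 1 was higher and 8 lower. CLPP, the matrix protease, was at 33 ± 1.97 CPM in shKDM2B cells and 59.5 ± 1.86 CPM in empty vector cells (log2 fold change -0.85, edgeR adjusted p = 8.85e-08), and TIMM44, which anchors HSPA9 at the import channel, at 41.5 ± 3.02 CPM in shKDM2B cells and 72.1 ± 8.78 CPM in empty vector cells (log2 fold change -0.79, edgeR adjusted p = 1.82e-06). Of 21 other J-proteins, 8 were higher, 6 were lower and 7 did not pass the test. These are 38.1% higher and 28.6% lower, beside 30.5% and 30.4% of all genes tested. DNAJC27 (log2 fold change 1.09, edgeR adjusted p = 8.52e-06) and DNAJC16 (0.96, edgeR adjusted p = 7.55e-09) had the largest differences. Of 6 genes listed as nucleotide exchange factors, 4 were lower and 1 higher, with BAG5 at -0.52 and BAG4 at -0.45 on the log2 scale. Of 6 other HSP70 genes, 4 were lower and none higher, and HSPA12A had a log2 fold change of -0.41 (edgeR adjusted p = 0.0015). None of 6 further small heat shock proteins passed the filter on low counts. Of 7 glucocorticoid-induced genes other than FKBP5, 4 were higher, with KLF9 at 21.6 ± 1.19 CPM in shKDM2B cells and 7.94 ± 0.336 CPM in empty vector cells, and 2 were lower, with DUSP1 at 59.9 ± 1.84 CPM in shKDM2B cells and 123.0 ± 5.77 CPM in empty vector cells.

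The following genes of those lists are named because few genes of their list moved in that direction, and were picked after their values were seen. The further HSP90 cochaperones that were higher in shKDM2B cells were ST13, the HSP70-interacting protein HIP (log2 fold change 0.53), and TOMM70, the import receptor that docks HSP90 and HSP70 at mitochondria (0.25). YME1L1, a protease of the inner membrane, was the higher gene of the mitochondrial list (log2 fold change 0.34). TBCC was that of the tubulin cofactors (0.38), and BAG6 that of the genes listed as nucleotide exchange factors (0.43). Whether BAG6 acts as such a factor was not examined. BAG1 and BAG2 were lower beside BAG4 and BAG5, with log2 fold changes of -0.43 and -0.27. The other HSP70 genes that were lower were HSPA12B (-1.72), HSPA2 (-0.51) and HSPA6 (-1.70), a strictly heat-inducible gene, all with low counts. HSPA6 had 5, 2 and 6 counts in shKDM2B libraries and 14, 12 and 14 in empty vector libraries. HSPA12B had 5, 3 and 10 counts in shKDM2B libraries and 14, 19 and 23 in empty vector libraries. HSPA2 had 23, 31 and 37 counts in shKDM2B libraries and 35, 34 and 52 in empty vector libraries. The further glucocorticoid-induced genes were TSC22D3 (log2 fold change 0.97), MT2A (0.53) and ERRFI1 (0.15) among the higher ones and SGK1 (-0.33) among the lower ones. Of 3 further heat shock factors and regulators, 1 was higher, HSF2BP, at 5.03 ± 0.217 CPM in shKDM2B cells and 2.18 ± 0.431 CPM in empty vector cells (log2 fold change 1.21, SE 0.19, edgeR adjusted p = 8.27e-05).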

How the data were processed

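The deposited table holds raw read counts per gene from the authors for each of the 6 libraries. Per the submitters' processing notes, STAR, featureCounts, Trim Galore, limma, edgeR and DESeq2 were used with GRCh38 (hg38). The sources used here give no tool versions, strand setting or handling of reads that fit several genes, so near-identical and overlapping genes can have lost or shared reads. Columns were assigned by name. The knockdown columns carry sh, an unexplained code and a number, and were taken as shKDM2B, the only hairpin group.

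Genes were filtered with filterByExpr, scaled with TMM factors and tested with edgeR 4.0.16 (robust glmQLFit, glmQLFTest) in R 4.3.3, with Benjamini-Hochberg adjustment over 14071 genes and a threshold of 0.05. CPM used TMM-scaled library sizes, and levels per kb used merged exons of GENCODE release 29. Ratios within libraries were compared with exact two-sided permutation tests. The procedure was run on simulated data in which 200 genes were changed. In the real data 8571 genes were called, so the simulation did not cover the scaling of libraries in which most genes differ. A count of 0 allows up to 3 counts, which covers counting error only. Within groups, pairs of libraries differed by chi-square values of 2.01 to 10.3 per degree of freedom, so none were copies.

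The members and all gene lists were chosen with earlier results of these data known. All 39 members were named. Of each list of other pathway genes, the called gene with the largest absolute log2 fold change and a mean of at least 5 CPM was named, and a second where at least 5 genes were called. Alternatives were DESeq2 1.42.0, limma-voom (limma 3.58.1), 3 other scalings, 2 other filters, a fit without robust estimation, a replicate block, a test for changes beyond 1.2-fold and leaving out each library.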

Additional observations from a re-analysis of the deposited data

How the results depend on the processing

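Over 16 alternative settings, 13 of the 28 called members kept their call in every one, among them HSF1, HSP90AA1, HSP90AB1, HSPA8, DNAJB4, CCT3 and all 4 mitochondrial chaperones. Of 624 combinations of a member and a setting, 32 lost a call, 19 gained one and 0 changed sign past the threshold. DESeq2, its size factors, a filter of 1 CPM in 3 libraries and the fit without robust estimation changed the call of no member. Tested for a change beyond 1.2-fold, 14 members lost their call and 5458 genes passed (2797 higher, 2661 lower), with 2 members higher and 12 lower, and by group 0 higher and 5 lower for HSP90 and cochaperones, 2 higher and 1 lower for HSP70, HSP110 and J-proteins, and 1 lower for the CCT ring. With library totals in place of TMM, the median log2 fold change was -0.21 for all members, -0.43 for HSP90 and cochaperones and 0.10 for HSP70, HSP110 and J-proteins, and 7 CCT subunits were lower. With no filter on low counts, 5 members were higher (HSPA4L, DNAJB6 and HSPB1 lost their calls), and the medians were -0.43 for HSP90 and cochaperones and 0.11 for HSP70, HSP110 and J-proteins. The cause of these shifts was not tested. The CCT level ratio in shKDM2B cells was 4.14 with the longest coding transcript. With that length, an alternative chosen after seeing the data for these genes, the log2 ratio of levels in empty vector cells turned to 0.10 for HSP90AA1 over HSP90AB1 and to 0.06 for HSPA8 over HSP90AA1, from -0.32 and -0.34 with merged exons, since the 2 lengths differ between genes.

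Leaving out each library in turn gave 7566 to 9128 called genes, 6 to 10 members higher and 19 to 23 lower. The median log2 fold change ranged from -0.25 to -0.09 for all members, from -0.45 to -0.40 for HSP90 and cochaperones, from 0.11 to 0.15 for HSP70, HSP110 and J-proteins and from -0.23 to -0.09 for the CCT ring. The value of -0.09, for all members and for the CCT ring, came without empty vector replicate 2, and 3 to 6 CCT subunits were lower. The HSPD1 to HSPE1 log2 ratio difference ranged from -0.42 to -0.06.

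Whether replicate numbers pair the libraries could not be told, since all correlations were small. The deviations of same-numbered libraries correlated at 0.118, -0.0258 and 0.0751 across genes. For shKDM2B replicates 1 and 3 the same-numbered empty vector library gave the highest correlation. By contrast, shKDM2B replicate 2 correlated best with empty vector replicate 3 (0.0838). With the number as a replicate block, 8479 genes were called (4249 higher, 4230 lower), 7 members were higher and 21 lower. HSPB1 was no longer called (adjusted p = 0.11) and CCT8 was (adjusted p = 0.0393). The depth of 10190149 to 15737951 counts limits the rare transcripts most, HSPA1A foremost with 10 to 40 counts.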

Other observations

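The hexamer CGACAC was looked for in annotated 3′ untranslated regions, a word chosen with earlier results of these data known. None of the 39 chaperone genes held it in the 3′ untranslated region of its longest coding transcript. It was present in 596 of 11906 tested genes with an annotated region (5.01%), whose median log2 fold change was -0.24, against 0.01 for genes without it.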
